A study of Rattus norvegicus with 8 samples.

Results

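A pair of the most abundant circular RNAs (circRNAs) in this rat cortex are also very short, and each shares a splice end with a set of mostly much longer circRNAs, here called its siblings. One of them spans 532 bases on the minus strand of chromosome 19, chr19:25886356-25886887, and the other 408 bases on the minus strand of chromosome 7, chr7:52745151-52745558 (Rnor_6.0). A sibling was any listed circRNA on the same chromosome and strand with the same exact start or the same exact end. This gave 10 members at the chromosome 19 locus (the short circRNA and 9 siblings) and 17 at the chromosome 7 locus (the short one and 16 siblings), or 27 of the 51995 circRNAs in the deposited table. The 2 short circRNAs were chosen by their mean RPM over all 8 libraries and their short span, and the siblings by position alone, so their high level and their share of each locus are descriptions and were not tested. The rule that chose the members uses no difference between injured and sham animals. The table names no genes and the annotation used here covers only the GRCr8 assembly, so no gene was assigned to either locus, and the tissue could not be checked against marker genes.

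The study measured circRNAs in total RNA from the cerebral cortex of 4 sham rats and 4 rats given a moderate traumatic brain injury (mTBI), with 1 library per sample. The mTBI samples were the cortex around the injury on the injured side, taken 24 h after injury, and the sham samples came from the same site. Perfusion of every animal used 100 ml of cold saline (4 °C), and RNA had an integrity number of at least 7. No transgene, drug or other treatment is labelled, and the sources used here give no strain, age or sex. In a piece of cortex, fewer cells of a type and less circRNA per cell cannot be told apart.

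A circRNA forms when the spliceosome joins the end of an exon, a splice donor, to the beginning of the same or an earlier exon, a splice acceptor, in a reaction called back-splicing. A circle can hold a single exon or several, and circles of one gene that use the same donor or acceptor can compete for it with each other and with linear splicing. circRNAs lack free ends, which makes them resistant to exonucleases and long-lived, and they are abundant in brain, where many come from neuronal and synaptic genes. On the minus strand the start coordinate is the downstream end of the circle, where a donor would lie, and the end coordinate is its upstream end, where an acceptor would lie. The values are RPM, reads scaled to the size of the library, and each circRNA is identified by its junction, so that the span between its ends is not its length after splicing.

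Summed over all circRNAs, the 8 libraries held 4966 to 5874 RPM, in 21508 to 23713 listed circRNAs. Within each library the values rise in equal steps, and if the smallest listed value, 0.0257 to 0.0262 RPM, is taken as 2 reads, a step is about 0.0129 RPM or 1 read. All read numbers here rest on that reading, under which 0 in the table stands for fewer than 2 reads or for a circRNA not called. Listed spans ran from 138 to 99986 bases, so a circle with ends farther apart than that is not in the table.

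The chromosome 19 short circRNA stood at 28.5, 26.6, 28.9 and 28.5 RPM in sham replicates 1 to 4 and at 22.9, 26.1, 24.9 and 26.6 RPM in the mTBI replicates. It was lowest in mTBI replicate 1, and the groups overlapped by a single pair, mTBI replicate 4 lying 0.00667 RPM above sham replicate 2, which is less than 1 read. These levels rest on 1775 to 2236 reads per library. The chromosome 7 short circRNA stood at 39.8, 37.4, 36.8 and 34.7 RPM in the sham libraries, against 33.1, 36.3, 37.5 and 36.8 RPM after mTBI, on 2562 to 3077 reads per library. Its groups overlapped broadly, with the highest value in sham replicate 1 and the lowest in mTBI replicate 1. In mean level they ranked 7 and 5 among all circRNAs, and they were the 2 highest of the 3902 circRNAs spanning up to 1000 bases. The third of that class, at chr15:47963486-47964008 on the plus strand, averaged 17.5 RPM.

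**Figure D1:**
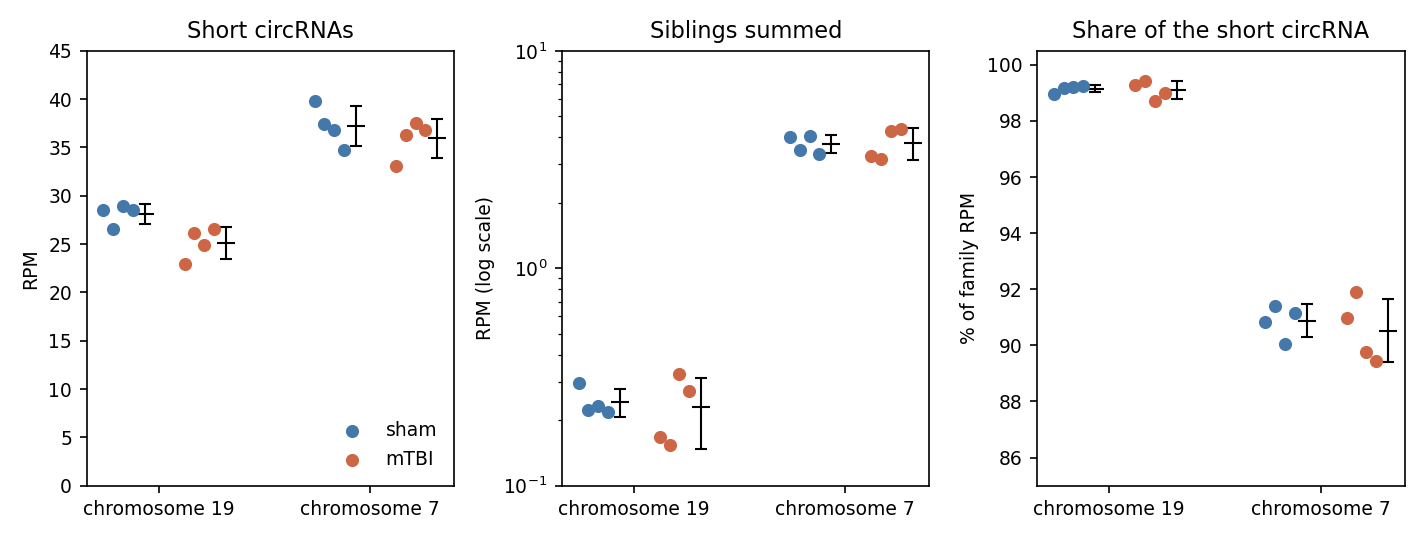
Each point is a library (blue sham, orange mTBI, 4 each, replicates 1 to 4 from left to right) and bars give the mean and SD. Left, RPM of the 2 short circRNAs, which sit between 22.9 and 28.9 RPM for chromosome 19 and between 33.1 and 39.8 RPM for chromosome 7. Middle, summed RPM of the siblings on a log axis, about 0.24 RPM against 3.75 RPM. Right, share of the locus held by the short circRNA, on an axis that does not start at 0.

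Both short circRNAs varied little between animals. The coefficient of variation within groups was 5.19% for chromosome 19 and 5.53% for chromosome 7, the fourth and the fifth lowest of the 34 circRNAs averaging at least 10 RPM, whose median was 9.68%. With ranks of 7 and 5 in mean level they also rest on more reads than most of the 34. The part of depth in this was not tested. None of the circRNAs nearest to a short circRNA in mean level kept its side of it in all 8 libraries. Just above the chromosome 7 one, the plus-strand circRNA on the same chromosome from 30727478 to 30735182 averaged 37.9 RPM and was the higher of the pair in 6 of 8 libraries. Just below it, and also just above the chromosome 19 one, a plus-strand circRNA at chr2:22950023-22964734 averaged 36.1 RPM with an SD of 7.34 RPM in sham and 15.8 RPM in mTBI. It exceeded the chromosome 7 short circRNA in 3 libraries and the chromosome 19 one, which averaged 26.6 RPM, in 7. Below the chromosome 19 one, a minus-strand circRNA at chr2:177947848-177973555 averaged 24.7 RPM and exceeded it in 2 libraries.

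At the chromosome 19 locus almost all junction reads belonged to the short circle. Its 9 siblings summed to 0.297, 0.223, 0.233 and 0.219 RPM in the sham libraries, against 0.168, 0.154, 0.326 and 0.272 RPM after mTBI, which is 12 to 25 reads per library. The mTBI values lay on both sides of the sham values, replicates 1 and 2 below all of them and replicate 3 above. The short circRNA held 99.1% ± 0.121 of the locus in sham and 99.1% ± 0.314 in mTBI (SD, n = 4 each). In single libraries it was 76.3 to 169 times as abundant as all its siblings together.

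The chromosome 7 siblings were far more abundant. They summed to 4.01, 3.51, 4.06 and 3.36 RPM in the sham libraries, against 3.28, 3.19, 4.27 and 4.35 RPM after mTBI, on 248 to 335 reads per library. Again mTBI replicates 1 and 2 were below every sham library and replicates 3 and 4 above. The summed RPM of all circRNAs was also lower in mTBI replicates 1 and 2 (4966 and 5002 RPM) than in replicates 3 and 4 (5540 and 5874 RPM), and its part in this pattern was not tested. The short circRNA held 90.9% ± 0.587 of the locus in sham and 90.5% ± 1.14 in mTBI (SD, n = 4 each), or 8.47 to 11.4 times its siblings.

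The 2 loci differed in which end the siblings shared. At chromosome 7, 11 of 16 siblings shared the start, the downstream end of the short circle, and reached upstream from it, and these held 89.5% of the siblings' RPM. At chromosome 19, 3 of 9 shared the start and held 33.6% of the siblings' RPM, while 6 shared the end and reached downstream. Counted end by end, the chromosome 19 short circRNA held 99.7% of the RPM listed at its downstream end and 99.4% at its upstream end, and the chromosome 7 one 91.6% and 98.9%. These are descriptions of 2 loci with no test. In 28 other families led by a circRNA of at least 10 RPM, the downstream end of the lead carried between 0% and 100% of the siblings' RPM, with a median of 46.3%.

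**Figure D2:**
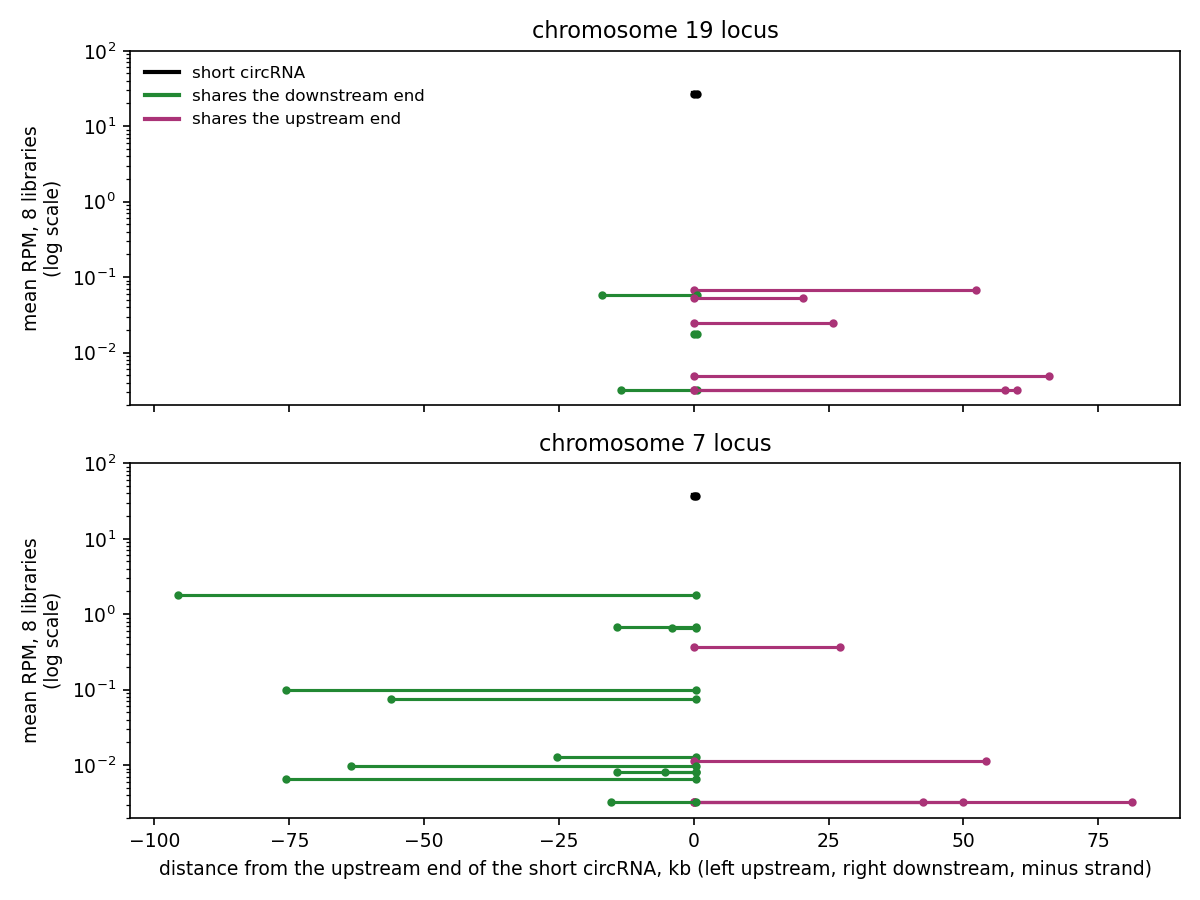
Each bar is a circRNA drawn from its upstream to its downstream end, in kb from the upstream end of the short circle, at its mean RPM over 8 libraries (log axis). Black is the short circRNA, green a sibling with the same downstream end and purple one with the same upstream end. At chromosome 7 the green bar reaching farthest upstream is the highest sibling, at 1.81 RPM, and at chromosome 19 no sibling exceeds 0.068 RPM.

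Among the chromosome 7 siblings the longest was the most abundant. The circRNA from 52745151 to 52841189 spans 96039 bases, close to the longest span in the table, and runs from the downstream end of the short circle to an end 95631 bases upstream of it. It stood at 2.05, 1.65, 1.81 and 1.52 RPM in the sham libraries, against 1.59, 1.71, 2.14 and 2.04 RPM after mTBI, so that the groups overlapped. It held 48.3% of the siblings' RPM, was the highest sibling in all 8 libraries and ranked 429 among all circRNAs, although the short circRNA was 20.2 times as abundant.

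A pair of shorter siblings with the same downstream end came next and could not be separated in level. The circRNA from 52745151 to 52759772 (14622 bases) stood at 0.698, 0.655, 0.725 and 0.554 RPM in the sham libraries, against 0.658, 0.617, 0.573 and 0.869 RPM after mTBI. The one from 52745151 to 52749674, the shortest sibling there with 4524 bases, stood at 0.607, 0.629, 0.867 and 0.554 RPM in the sham libraries, against 0.568, 0.450, 0.873 and 0.675 RPM after mTBI. The first exceeded the second in 5 libraries and equalled it in 1, and for both the sham and mTBI values overlapped.

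The main sibling on the other side shares the upstream end of the short circle. The circRNA from 52718471 to 52745558 (27088 bases) stood at 0.426, 0.275, 0.453 and 0.387 RPM in the sham libraries, against 0.245, 0.141, 0.521 and 0.532 RPM after mTBI. It was the most uneven of these siblings within mTBI, with replicates 1 and 2 below all sham libraries and replicates 3 and 4 above. In mTBI, replicates 1 and 2 also had the lower total RPM given above, and its part in this split was not tested.

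The remaining chromosome 7 siblings were rare. The circRNA from 52745151 to 52821220 (76070 bases) averaged 0.10 RPM and the one from 52745151 to 52801719 (56569 bases) 0.0762 RPM. Both were listed in all 8 libraries, on 3 to 11 reads each, and the first was higher in 5 libraries. The other 10 were listed in 1 to 3 libraries at 2 to 4 reads each and averaged at most 0.0129 RPM.

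At chromosome 19 no sibling averaged above 0.068 RPM, and 2 of 9 were listed in all 8 libraries. The circRNA from 25834566 to 25886887 (52322 bases, shared upstream end) stood at 0.0517, 0.0393, 0.0518 and 0.0516 RPM in the sham libraries, against 0.129, 0.0515, 0.0521 and 0.117 RPM after mTBI. It was high in mTBI replicates 1 and 4, at 10 and 9 reads against 3 or 4 in all other libraries, and the groups overlapped. The one from 25886356 to 25903940 (17585 bases, shared downstream end) stood at 0.0646, 0.118, 0.0388 and 0.0516 RPM in the sham libraries, against 0.0387, 0.0386, 0.0651 and 0.0519 RPM after mTBI. Here sham replicate 2 was highest, with 9 reads, and the mTBI values lay within or just under the sham range.

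The third chromosome 19 sibling, from 25866615 to 25886887 (20273 bases, shared upstream end), stood at 0.129, 0.0655, 0.0906 and 0.0258 RPM in sham, and in mTBI it was listed at 0 in replicates 1 and 2 and at 0.0782 and 0.0389 RPM in replicates 3 and 4. Of all siblings tested it had the smallest unadjusted p (0.0824, limma), on 2 to 10 reads where it was listed. The one from 25861153 to 25886887 (25735 bases) was listed in 2 sham and 2 mTBI libraries, at 0.0259 to 0.0782 RPM. The longest, from 25821017 to 25886887 (65871 bases), was listed only in sham replicate 4, at 0.0387 RPM or 3 reads. The order of the 4 siblings listed in at least 4 libraries did not hold from library to library, none exceeding the next in more than 5 of 8.

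**Figure D3:**
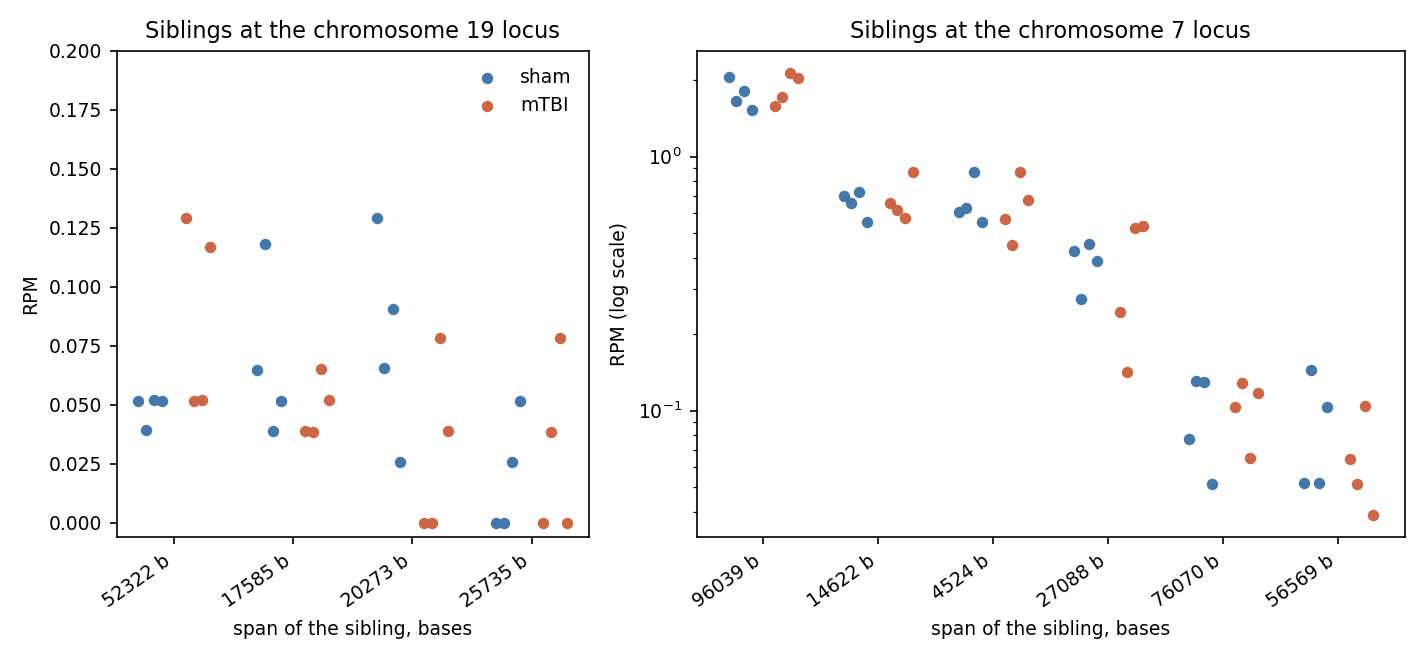
RPM of the siblings listed in at least 4 libraries, 1 point per library (blue sham, orange mTBI, replicates 1 to 4 from left to right), ordered by mean level and labelled by span. Left, the 4 chromosome 19 siblings on a linear axis, all at or below 0.129 RPM. Right, the 6 chromosome 7 siblings on a log axis, where the groups overlap for each and the 27088-base sibling is split within mTBI.

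One sibling was shorter than its lead. The circRNA from 25886356 to 25886812 spans 457 bases, lies inside the chromosome 19 short circRNA and ends 75 bases short of its upstream end. Its only listed values were 0.0258 RPM (sham replicate 1), 0.0521 RPM (mTBI replicate 3) and 0.0649 RPM (mTBI replicate 4), on 2, 4 and 5 reads. The short circRNA averaged 1491 times its level. Similar close pairs of upstream ends stood at chromosome 7, where the end at 52759695 lies 77 bases from that at 52759772 and the end at 52821194 lies 26 bases from that at 52821220. In each pair 1 end prevailed, by 83.1 and 15.5 times in mean RPM.

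The other ends of the siblings were seldom used by other circRNAs. All 9 other ends at chromosome 19 and 13 of 16 at chromosome 7 occur in no other listed circRNA of that strand, so that joining circRNAs through shared ends adds 0 circRNAs to the first locus and 2 to the second. In the 28 other families led by at least 10 RPM, 133 of 277 siblings (48.0%) had such an end, and 3 families consisted only of them. By family the percentage was 69.2% to 100% where the lead held a larger share of its family than the chromosome 7 short circRNA. In the rest it was 11.1% to 85.7%, and this relation was not tested. Both circRNAs added at chromosome 7 were listed in 1 library. The one from 52718471 to 52749674 joins the far ends of 2 siblings on either side of the short circle, at 0.0388 RPM in sham replicate 3, and is the only circRNA of that strand to overlap the short circRNA without sharing an end. At chromosome 19 there was none, and no circRNA of the opposite strand overlapped either short circRNA. No circRNA missed the rule narrowly: none had an end within 10 bases, or within 100 bases, of the shared ends without matching one of them.

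The chromosome 19 short circRNA had the highest share of its family among the 30 families led by a circRNA of at least 10 RPM, and the chromosome 7 one ranked 11. In the 28 others the share ran from 26.3% to 98.9% with a median of 84.2%, over 2 to 21 siblings with a median of 10. With 16 siblings, the chromosome 7 locus had more than all but 2 of the 30. These comparisons describe share and number of siblings, for short circRNAs that had been chosen by their level and span, and were not tested.

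**Figure D4:**
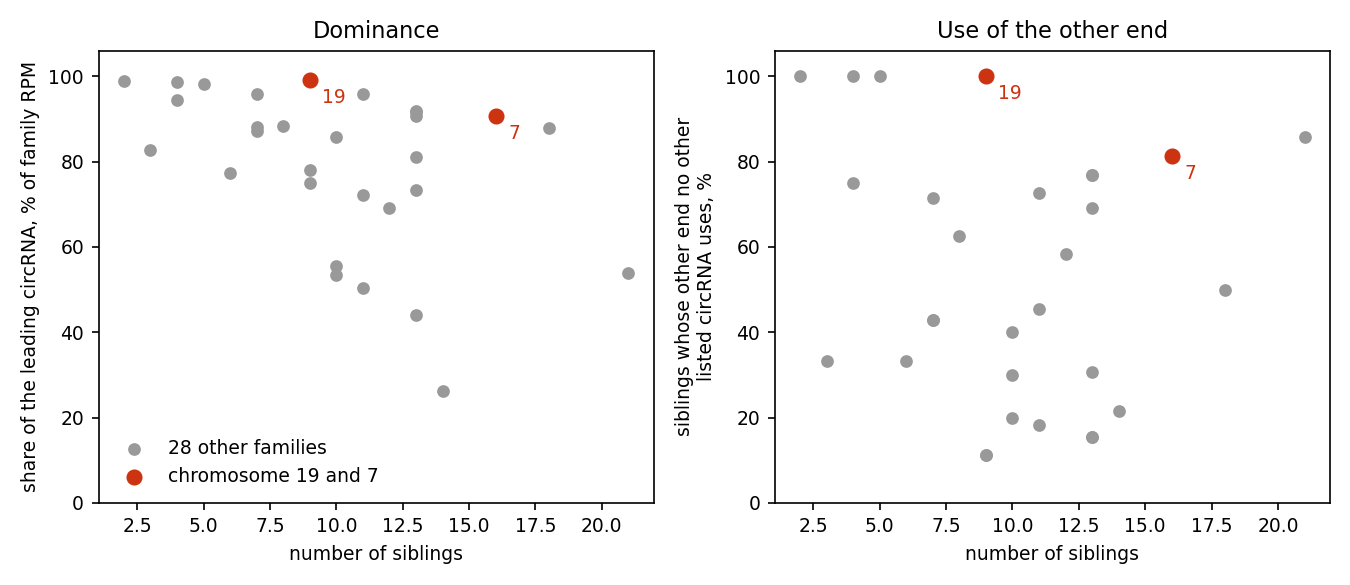
Each point is a family led by a circRNA of at least 10 RPM, against its number of siblings. Left, share of the family's RPM held by the lead, 99.1% for chromosome 19 and 90.7% for chromosome 7 (red). Right, share of siblings whose other end occurs in no other listed circRNA, 100% and 81.3%, against 48.0% over all siblings of the 28 other families (grey). By family these others ran from 11.1% to 100%, and from 69.2% to 100% where the lead's share exceeded that at chromosome 7.

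The comparison between injured and sham cortex was read from a fit of all 20174 circRNAs listed in at least 4 libraries (limma on log2(RPM + 0.0259), two-sided, Benjamini-Hochberg adjustment, threshold 0.05). Of the 27 members, 12 could be tested, 5 at chromosome 19 and 7 at chromosome 7. None of the 12 passed in this fit, where 0.0248% of all circRNAs tested passed (5 of 20174). In the same fit 0 of the 12 had an unadjusted p under 0.05, against 4.68% of all. With limma voom on reads, 0 of the 12 passed and 3 of all 20174 did, and the chromosome 19 short circRNA had an unadjusted p of 0.000726. As fitted, 10 of 12 members had a log2 change under 0.5 in size, as did 70.1% of all tested, and the median was -0.06 for the members and -0.02 for all. The intervals of rare siblings were wide, such as -2.27 to 0.14 for the 20273-base one, so larger changes in them remain possible. In 0 of 12 did the sham and mTBI values separate completely, against 2.81% of all.

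The chromosome 19 short circRNA averaged 28.1 ± 1.05 RPM (SD, n = 4) in the sham libraries and 25.1 ± 1.65 RPM (SD, n = 4) after mTBI. The difference of -3.01 RPM was larger than either SD but did not pass, with a log2 change of -0.16 (SE 0.11, 95% interval -0.39 to 0.06, limma adjusted p = 0.973). An exact permutation test over the 70 assignments of libraries, two-sided, gave p = 0.0571, where the smallest possible is 0.0286. The limma SE leans on the spread of other circRNAs, and limma voom on reads gave the same log2 change with an SE of 0.04 (adjusted p = 0.385). As a share of each library's circRNA RPM it was 0.508% to 0.532% in sham and 0.461%, 0.522%, 0.449% and 0.453% in mTBI, where mTBI replicate 2 fell inside the sham range.

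The chromosome 7 short circRNA averaged 37.2 ± 2.07 RPM (SD, n = 4) in the sham libraries and 35.9 ± 1.98 RPM (SD, n = 4) after mTBI, a difference within the spread between animals. Its log2 change was -0.05 (SE 0.11, 95% interval -0.27 to 0.17, limma adjusted p = 1), and the exact permutation p was 0.429, two-sided. The interval leaves room for a level 0.832 to 1.12 times that of sham. For chromosome 19 the same bounds were 0.766 and 1.04 times.

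The relation of the 2 short circRNAs to each other was also followed by library. The chromosome 7 one stood at 1.40, 1.41, 1.27 and 1.22 times the chromosome 19 one in sham and at 1.44, 1.39, 1.51 and 1.39 times in mTBI. The ratio was lowest in sham replicates 3 and 4, and the groups overlapped. In deviations from their own mean over the 8 libraries, on the log2 scale, they were 0.0917 apart (root mean square), where the median distance of a circRNA of at least 1 RPM was 0.210 from the chromosome 19 one and 0.207 from the chromosome 7 one. In order of nearness the chromosome 7 one ranked 23 from the chromosome 19 one, which ranked 26 in the other direction. Many circRNAs compared rest on far fewer reads than these 2, and the part of depth in the distances was not tested.

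Among the members, only the short circRNAs and the 96039-base chromosome 7 sibling average at least 1 RPM, so the other siblings could not enter this comparison. Of the 881 other circRNAs of at least 1 RPM, the ones nearest in pattern were members of neither locus. For chromosome 19 they were the plus-strand circRNAs on chromosome 7 from 78432827 to 78520474 (distance 0.0485), on chromosome 1 from 204959173 to 204961691 (0.0651) and on chromosome 17 from 19160994 to 19250082 (0.0665). For chromosome 7 they were 3 plus-strand circRNAs, at chr5:105182877-105187360 (0.0424), chr14:39168189-39186197 (0.0510) and chr3:129779762-129789947 (0.0655).

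Whether the siblings as a sum, or their balance with the short circRNA, differed after injury was read from fits over all 5111 families with a lead and siblings listed in at least 4 libraries. A lead is the circRNA with the highest mean among those sharing its start or end. The chromosome 19 siblings had a log2 change of -0.12 (SE 0.33, 95% interval -0.79 to 0.55, limma adjusted p = 0.993) and the chromosome 7 siblings of 0.00344 (SE 0.14, 95% interval -0.28 to 0.28, limma adjusted p = 1). The short-to-siblings ratio changed by -0.05 on the log2 scale at both loci (limma adjusted p = 1 for each), with an SE of 0.41 at chromosome 19 and 0.29 at chromosome 7. Its 95% intervals, -0.96 to 0.87 and -0.71 to 0.60, are wide. They leave room for a ratio 0.515 to 1.82 times that of sham at chromosome 19 and 0.612 to 1.52 times at chromosome 7. Over all families 1 sibling sum passed (0.0196%) and 0 ratios (0%).

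**Figure D5:**
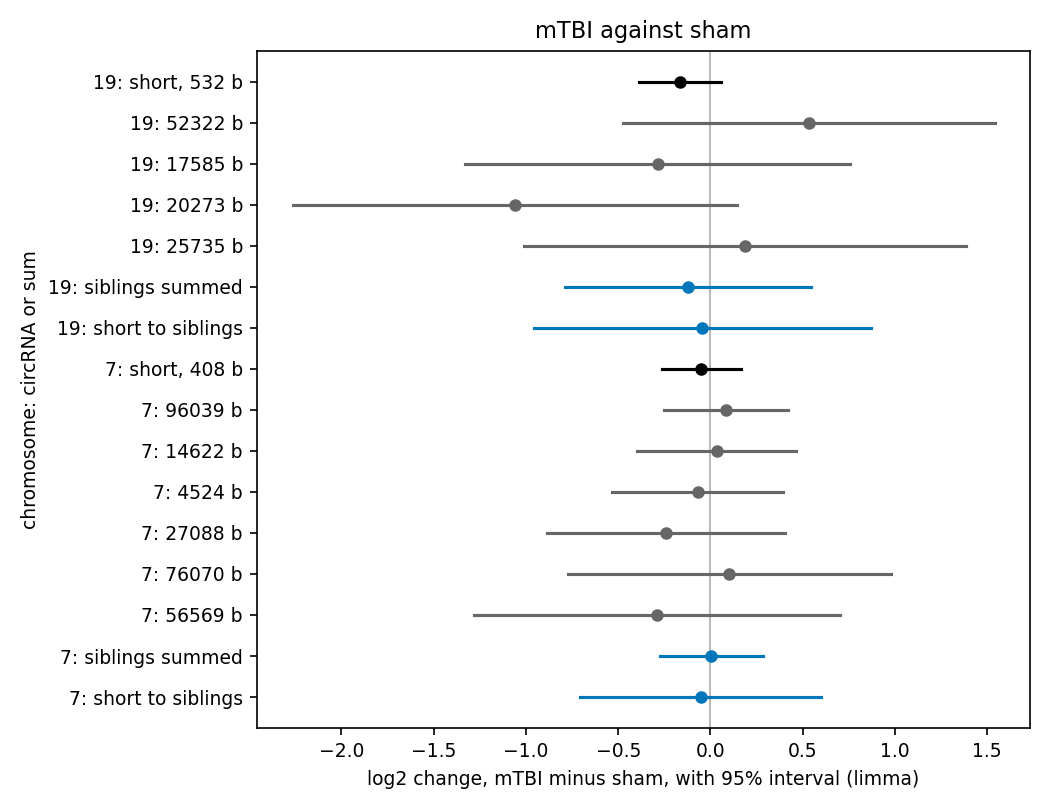
Points are log2 changes in mTBI against sham with 95% intervals (limma), for the 12 members tested (black short, grey siblings, labelled by chromosome and span) and for the sibling sums and short-to-siblings ratios (blue). Every interval crosses 0, and the intervals of the 2 short circRNAs are much narrower than those of the rare chromosome 19 siblings.

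No sibling's 95% interval lay wholly on one side of 0. The 20273-base chromosome 19 sibling had the largest log2 change, -1.06 (SE 0.59, 95% interval -2.27 to 0.14, limma adjusted p = 0.973), and the 52322-base one the largest upward, 0.53 (SE 0.49, 95% interval -0.47 to 1.54, adjusted p = 0.976). At chromosome 7 the 27088-base sibling had the smallest p (log2 change -0.24, SE 0.32, limma adjusted p = 1) and the 96039-base one the smallest among those with a positive change (0.08, SE 0.17, adjusted p = 1). Of the 12 members tested 5 had a positive and 7 a negative change, against 9693 positive of 20174.

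The 15 members not tested were listed in at most 3 libraries. Over both loci 9 of 25 siblings were listed in a single library, where 39.5% of all circRNAs were. Siblings listed in sham only numbered 7, in mTBI only 3 and in both groups 15, and those listed in 1 group only had 2 to 4 reads where listed. The same split was not counted over all circRNAs, so no lean toward a group can be read from it. At chromosome 19 the libraries listed 5, 3, 5 and 5 siblings in sham and 2, 4, 5 and 4 in mTBI. At chromosome 7 they listed 8, 7, 7 and 12 in sham and 8, 8, 6 and 8 in mTBI, the 12 of sham replicate 4 including 2 circRNAs listed nowhere else.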

How the data were processed

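The table the authors deposited gives RPM per circRNA for 8 libraries, with the junction position and strand in each row name. Its control columns are headed Con1 to Con4 per the file headers and were taken as sham replicates 1 to 4, an assumption that fixes which sham library carries which number but not the groups. A stranded library kit with ribosomal RNA removal was used, per the labels' protocols. Trimmomatic 0.36, DESeq and the build Rnor_6.0 are named, per the submitters' processing notes. Neither aligner nor circRNA caller is given in the sources used here. The 8 cortex samples are separate by their labels, and p-values measure the spread between them.

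All values were whole multiples, within 0.01 read, of 1 step per library, with the smallest listed value taken as 2 reads; libraries held 384910 to 452692 reads on that reading. Main tests used RPM: limma 3.58.1 in R 4.3.3 (lmFit, eBayes with trend) on log2(RPM + 0.0259), the pseudocount being the libraries' median smallest value, for circRNAs listed in at least 4 of 8 libraries, with p-values adjusted over the whole table or all families. The test was run on simulated data first. Fold changes on this scale understate changes of rare circRNAs. Named siblings are, per locus, the 6 with the highest mean, the shortest and longest, and those with the smallest p per direction; the nearest rows in level and pattern were named as well. The members and lists were chosen with earlier results of these data known. Alternatives covered the pseudocount, filter, scaling, variance model, replicate block, definition of siblings and each library left out; limma voom on reads was chosen after seeing the data. Python 3.11.15, pandas 2.3.3, scipy 1.17.1 and matplotlib 3.10.9 were used.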

Additional observations from a re-analysis of the deposited data

Results flagged for a closer look

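In 32 groups of 4 libraries (the short circRNAs, the sibling sums, the shares and the 10 siblings tested, in sham and in mTBI), 1 group had a library far from the other 3, where chance gives about 1 in 20, or 1.6 of 32. It was the chromosome 19 sibling from 25834566 to 25886887 in sham, at 0.0393 RPM in replicate 2 against 0.0516 to 0.0518 RPM in the others, a gap of 0.985 of the range. This is 3 reads against 4.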

How the results depend on the processing

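No member passed the threshold in the main fits or under any alternative run. With no filter all 27 members were tested. Tests of the 12 members of the main fit, the sums and the ratios numbered 309, main fits included. Their smallest adjusted p was 0.385 (limma voom), for the chromosome 19 short circRNA. Its unadjusted limma p, 0.138 in the planned fit, was 0.0125 with no filter, 0.0210 with robust shrinkage and 0.0374 with a mean of at least 0.1 RPM. It was lower in mTBI under all 10 alternatives (log2 change -0.17 to -0.14) and without each library (-0.19 to -0.12), and the chromosome 7 one likewise (-0.05 to -0.03, and -0.08 to -0.01). With siblings of the shared end only, the chromosome 7 sums went to -0.29 and the ratio to 0.24, opposite in sign to the main values, on 5 of the 16 siblings. Leaving out each library moved the sibling sums from -0.29 to 0.0302 at chromosome 19 and from -0.0693 to 0.0785 at chromosome 7, and the ratios from -0.21 to 0.13 and from -0.13 to 0.00666, across 0 in each case. Single siblings also crossed 0, by library left out: the 25735-base one from -0.0295 to 0.46, the 27088-base one from -0.47 to 0.11, the 4524-base one from -0.22 to 0.0813, the 14622-base one from -0.0863 to 0.11 and the 76070-base one from -0.10 to 0.26. The share of the short circRNA was 99.7% and 99.4% at chromosome 19, and 91.6% and 98.9% at chromosome 7, with siblings of the shared start or end only. It was 99.1% to 99.2% and 90.5% to 90.9% without each library. The count of all circRNAs called, 5, was 10 with 4 times the pseudocount, 55 with no filter, 0 with a mean of at least 0.1 RPM, 10 with libraries centred on their median, 1 with no variance trend, 23 with robust shrinkage, 0 with the replicate block and 3 with limma voom. It ran from 2 (without mTBI replicate 3) to 9 (without sham replicate 3), and was 3 without mTBI replicate 1. With the replicate block the log2 changes of the short circRNAs stayed at -0.16 and -0.05 and 0 members were called. Replicate numbers pair no samples by the labels, and same-numbered libraries did not deviate together (correlations -0.11 to 0.06 over 1875 circRNAs, none of the sham libraries closest to its own number). The filter on the mean left 7 members to test, and 4 of the 8 left-out libraries removed the 25735-base sibling. Depth limits the chromosome 19 siblings most, with 12 to 25 reads per library in all.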
